A study of Mus musculus with 22 samples.

Results

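The 9 genes Trem2, Gpnmb, Spp1, Cd9, Cd63, Fabp5, Lpl, Apoe and Lgals3 are often measured together as the signature of lipid-associated macrophages, and they were chosen here by name, as 9 of 52636 genes in the deposited count tables of a mouse renal capsule study. The renal capsule is the thin connective tissue sheath around the kidney. RNA was sequenced in bulk in 22 libraries of 6 title groups: RCAM libraries of aged and of young mice (n = 4 each), capsule tissue of aged and of young mice (n = 3 each), capsule macrophages (n = 4) and kidney macrophages (n = 4). No group received a treatment, and the labels name no strain, allele, sex or age in weeks, nor an age group for the capsule and kidney macrophages. RCAM is not spelled out in the labels, which list the cell type of those libraries as whole tissue, whereas the series text speaks of flow cytometry sorting for macrophages. Nothing states that replicates were separate mice, so each p-value measures only the spread between libraries, which may be technical.

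Lipid-associated macrophages are tissue macrophages that take up and break down lipid from dying cells, fat depots or damaged membranes. TREM2 is a surface receptor that binds lipids and lipoproteins, APOE among them, and signals through the adaptor TYROBP (DAP12). Downstream, such cells are known in mouse adipose tissue, atherosclerotic plaque and brain for high expression of genes for lipid handling, lysosomes and secreted glycoproteins. Several of the 9 genes are also well known outside macrophages: Lpl in adipocytes and Spp1 in kidney tubule cells, for example.

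The genes lie on 8 chromosomes of the GRCm38 assembly, by the GENCODE M21 annotation. Trem2 is on chromosome 17 at 48346401 to 48354147 and Gpnmb on chromosome 6 at 49036546 to 49070929, both on the plus strand. Apoe is on chromosome 7 at 19696109 to 19699188 on the minus strand, Lpl on chromosome 8 at 68880491 to 68907448 and Fabp5 on chromosome 3 at 10012548 to 10016607, both on the plus strand. Spp1 is on chromosome 5 at 104435118 to 104441050, Lgals3 on chromosome 14 at 47367751 to 47386160 and Cd63 on chromosome 10 at 128900989 to 128912822, all on the plus strand. Cd9 is on chromosome 6 at 125460266 to 125494791 on the minus strand. Trem2, Apoe and Lgals3 shared no 50-base window with transcripts of another gene and Gpnmb shared 1. For Spp1, Cd63 and Cd9, 11.6, 11.1 and 14.4% of windows also occurred elsewhere, and for Fabp5, which has processed copies, 5.48% did. Counts of these 4 genes are less certain for that reason.

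Trem2 and Gpnmb, the genes the results below turn on most, are shown here by the 300 bases around their RefSeq transcription start (GRCm38.p6, plus strand, 250 bases before and 50 from the start), because their levels went up and down together over the macrophage and RCAM libraries. Capitals mark a match to 1 of 4 strings searched on both strands: CACGTG, the E-box bound by the MiT/TFE family; TCATGTG, the related M-box; TGACTCA, the AP-1 site; and GGAAGT, the core of sites for ETS factors such as PU.1. None of the 4 contains another. The windows are chr17:48346151-48346450 for Trem2 and chr6:49036268-49036567 for Gpnmb.
Trem2: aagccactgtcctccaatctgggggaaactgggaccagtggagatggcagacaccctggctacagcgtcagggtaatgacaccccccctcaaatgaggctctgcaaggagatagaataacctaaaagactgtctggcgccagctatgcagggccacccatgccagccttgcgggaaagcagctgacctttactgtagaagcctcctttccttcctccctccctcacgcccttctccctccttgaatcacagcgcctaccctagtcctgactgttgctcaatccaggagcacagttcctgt
Gpnmb: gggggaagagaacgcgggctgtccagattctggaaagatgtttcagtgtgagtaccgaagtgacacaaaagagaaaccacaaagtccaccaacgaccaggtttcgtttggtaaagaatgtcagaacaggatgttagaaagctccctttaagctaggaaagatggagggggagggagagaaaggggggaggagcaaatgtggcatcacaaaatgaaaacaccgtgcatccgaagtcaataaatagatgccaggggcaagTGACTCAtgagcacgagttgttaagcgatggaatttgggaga
The Trem2 window held none of the 4 strings. The Gpnmb window held 1 TGACTCA, starting at base 9 counted from 1 at the start site. Of 32851 promoter windows of the same length, 5.2% held TGACTCA, 7.15% CACGTG, 3.77% TCATGTG and 23.8% GGAAGT. RefSeq windows were found for 7 of the 9 genes. Among the other 5, GGAAGT occurred once in a window of Spp1 and once in that of Cd63, and no other string occurred. A match to a short string is a description of the letters, not a bound site.

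Sequencing depth was 45.0 to 51.8 M counts in aged RCAM libraries, 49.8 to 54.4 M in young RCAM libraries, 27.1 to 43.2 M in aged capsule tissue, 20.6 to 22.2 M in young capsule tissue, 39.3 to 53.4 M in capsule macrophages and 31.8 to 49.9 M in kidney macrophages (M, 1e6). Marker RNA was checked against the labels. In counts per 1e6 of the library total (CPM), 12 macrophage genes added up to 36460 to 40810 in RCAM libraries and to 34800 to 38450 in the macrophages of the capsule, but only to 2099 to 10930 in capsule tissue. The 9 adipocyte genes listed added up to 121.9 to 185.9 CPM among RCAM libraries and 14690 to 32940 CPM among capsule tissue libraries, so the RCAM libraries carried macrophage RNA at the level of the capsule macrophages and not at that of whole capsule tissue. Kidney macrophages lay between, at 26900 to 29770 CPM of the macrophage list. In capsule tissue the libraries numbered 2 stood apart, with adrenal cortex transcripts summing to 5426 CPM in the aged and 139.7 CPM in the young library, against at most 12.1 CPM in the other capsule tissue libraries. For the 9 genes by age in capsule tissue, calls are given with and without these libraries. Other results that use them are not all given without them.

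Across the 6 groups the 9 genes did not share 1 pattern. Trem2, Lgals3 and Cd63 averaged highest in aged RCAM libraries, Gpnmb, Fabp5 and Lpl in aged capsule tissue, Spp1 in young capsule tissue, Cd9 in kidney macrophages and Apoe in capsule macrophages (with TMM-scaled totals, Apoe averaged 21670 CPM in aged RCAM libraries and 21650 CPM in capsule macrophages). Trem2 averaged 141.1 ± 8.38 CPM in aged RCAM libraries, 90.8 ± 77.7 in aged capsule tissue, 63.9 ± 8.66 in young RCAM libraries, 56.0 ± 7.73 in capsule macrophages, 33.1 ± 5.19 in kidney macrophages and 8.10 ± 2.55 in young capsule tissue (SD). The ranges of the first 4 groups in that order overlapped with their neighbours, while kidney macrophages and young capsule tissue each lay apart from the group above. For Gpnmb the order was aged capsule tissue at 664.6 ± 552.3 CPM, aged RCAM libraries at 90.9 ± 29.2, young capsule tissue at 14.1 ± 4.84, young RCAM libraries at 6.16 ± 4.09, capsule macrophages at 2.92 ± 1.65 and kidney macrophages at 0.747 ± 0.666. Of those neighbours, aged RCAM libraries and young capsule tissue did not overlap, and the other 4 pairs did. Lpl averaged 4983 ± 1656 CPM in aged capsule tissue and 3535 ± 1491 in young capsule tissue, above all 4 groups rich in macrophage RNA, which averaged 694.8 to 1363 CPM. Fabp5, like Lpl, averaged higher in capsule tissue of either age than in these 4 groups.

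**Figure D1:**
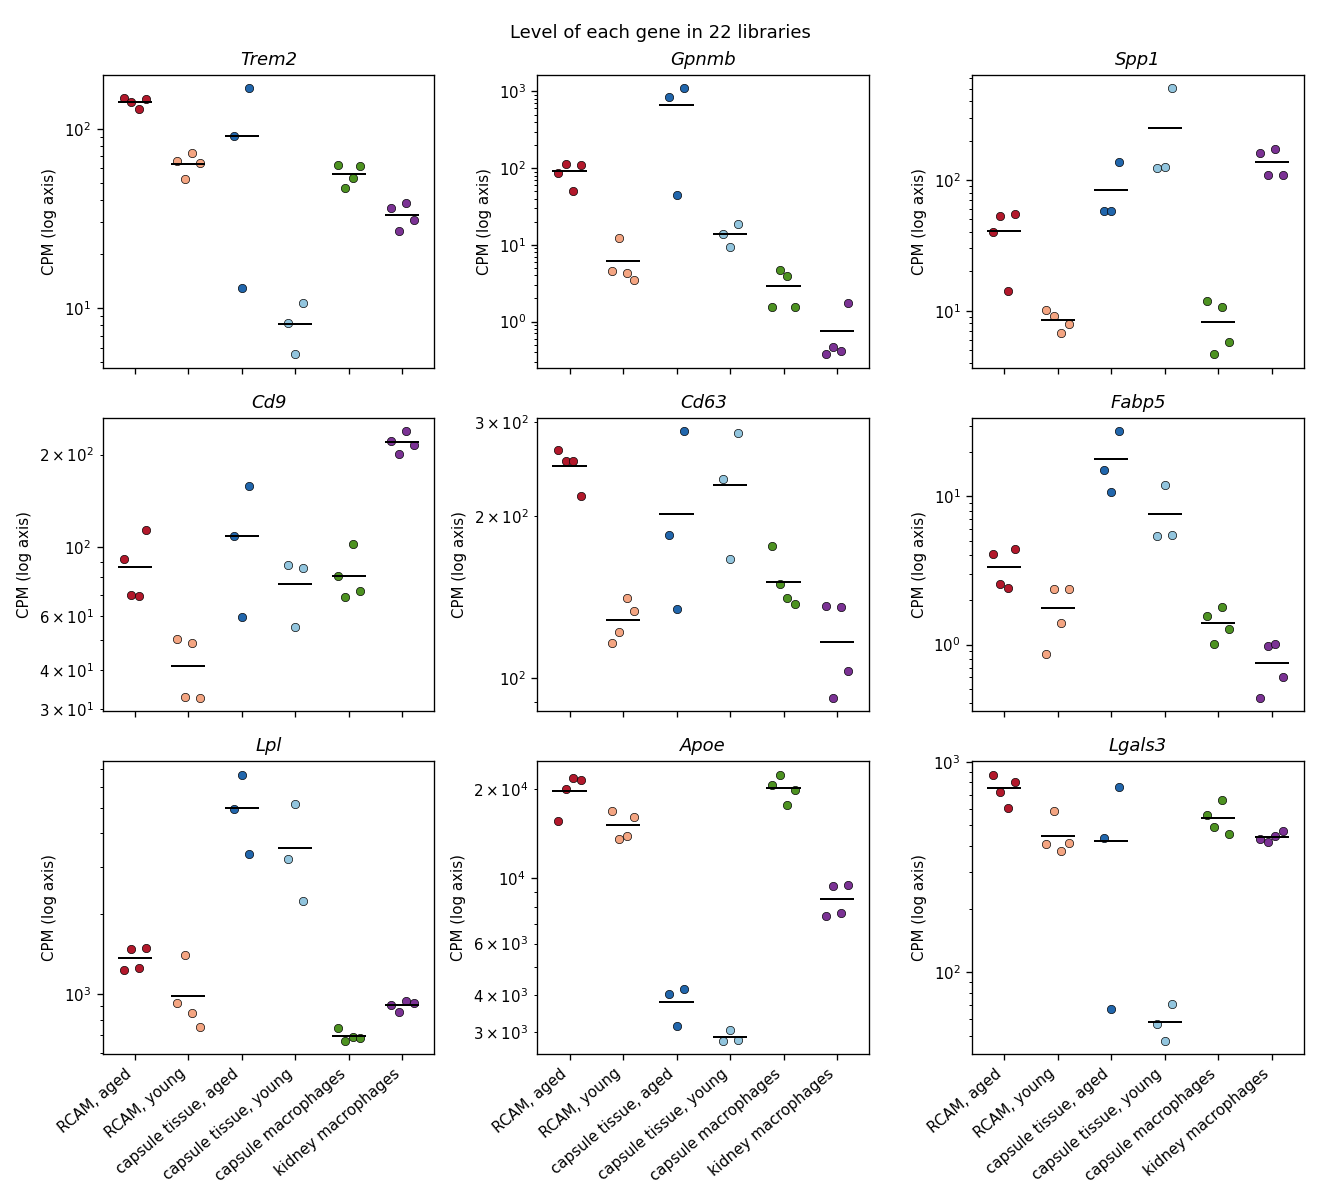
CPM of each of the 9 genes (log axis) in all 22 libraries, 1 panel per gene, with 1 point per library and a line at the group mean. Gpnmb reached 842.4 and 1106 CPM in 2 aged capsule tissue libraries and stayed at or below 4.76 CPM in capsule and kidney macrophages, whereas Apoe and Lpl ran in opposite orders between macrophage-rich libraries and capsule tissue.

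Between genes, levels were compared per kilobase (kb) of exon. Apoe led in all 6 groups, with 9251 ± 1340 CPM per kb in aged RCAM libraries, 7058 ± 766.9 in young RCAM libraries and 9429 ± 920.1 in capsule macrophages. Lgals3, a galectin that binds damaged lysosomes, came next in the 4 groups rich in macrophage RNA, at 404.1 ± 61.5 CPM per kb in aged RCAM libraries. Gpnmb was next to last there at 13.9 ± 4.48 CPM per kb, and last in kidney macrophages at 0.115 ± 0.102 CPM per kb. In aged capsule tissue Gpnmb was number 4 of the 9, at 102.0 ± 84.8 CPM per kb.

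The first comparison asked how RCAM libraries of aged mice differed from those of young mice. In aged RCAM libraries 6 of the 9 genes were higher: the receptor Trem2, the glycoprotein Gpnmb, the secreted Spp1 (osteopontin), the galectin Lgals3 and both tetraspanins, Cd9 and Cd63. None was lower, and Apoe, Lpl and Fabp5 did not pass the test. In edgeR's quasi-likelihood test, with Benjamini-Hochberg adjusted p under 0.05 over every gene in the fit, 4.80% of 15182 genes were called, 3.43% higher in aged RCAM libraries and 1.38% lower. The median log2 fold change was 0.93 over the 9 genes and -0.006 over all genes tested. Macrophage marker RNA as a whole did not move with them: the 12-gene list summed to 36820 to 40810 CPM in aged and 36460 to 38890 CPM in young RCAM libraries, and 1 of its 12 genes, Mpeg1, was higher.

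Trem2 had 147.9, 140.8, 129.4 and 146.2 CPM in aged RCAM libraries, against 65.9, 52.1, 72.9 and 64.7 CPM in young RCAM libraries. All 4 aged libraries lay above all 4 young ones. The log2 fold change was 1.12 ± 0.10 (SE, adjusted p = 0.000492). Gpnmb, a lysosomal and surface glycoprotein known to be induced in lipid-laden macrophages, had 87.1, 113.9, 51.1 and 111.5 CPM in aged RCAM libraries, against 4.56, 12.3, 4.32 and 3.50 CPM in young RCAM libraries. Its groups were also apart, and the lowest aged library was above the highest young one. With a log2 fold change of 3.86 ± 0.43 (adjusted p = 0.00151) it had the largest change of the 9.

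Spp1, a phosphoprotein that binds integrins and CD44, had 40.3, 52.8, 14.1 and 55.3 CPM in aged RCAM libraries, against 10.2, 9.15, 6.79 and 7.98 CPM in young RCAM libraries. The groups did not overlap, although the aged library numbered 3 came close to the young range. The log2 fold change was 2.22 ± 0.37 (adjusted p = 0.00903). Lgals3 had 871.1, 720.8, 606.5 and 804.8 CPM in aged RCAM libraries, against 405.7, 587.0, 376.3 and 411.1 CPM in young RCAM libraries. The young library numbered 2 reached nearly the lowest aged value. Its log2 fold change was 0.73 ± 0.15 (adjusted p = 0.0245), and 5 of 8 fits that left out 1 library lost the call: those without young library 1, 3 or 4 or without aged library 1 or 4, with adjusted p up to 0.0716.

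The tetraspanins organise receptors and integrins in the cell membrane, and CD63 is a standard protein of lysosomes and exosomes. Cd63 had 266.2, 254.0, 253.7 and 217.8 CPM in aged RCAM libraries, against 116.3, 121.7, 140.7 and 133.2 CPM in young RCAM libraries. The groups were apart, and the log2 fold change was 0.93 ± 0.08 (adjusted p = 0.00049). Cd9 had 91.6, 70.1, 69.7 and 113.8 CPM in aged RCAM libraries, against 50.4, 32.8, 49.1 and 32.6 CPM in young RCAM libraries. The groups were apart, with a log2 fold change of 1.04 ± 0.20 (adjusted p = 0.0173, and 0.0504 without young library 4).

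The lipid ligand, the lipase and the fatty acid carrier gave positive estimates that did not pass the test. Apoe, the lipoprotein that macrophages secrete to carry cholesterol, had 15640 to 21840 CPM in aged and 13570 to 16890 CPM in young RCAM libraries, and its log2 fold change was 0.36 ± 0.13 (adjusted p = 0.164, and 0.0463 without aged library 1). Lpl, which hydrolyses triglycerides of lipoproteins, had 1234 to 1487 CPM in aged and 752.9 to 1396 CPM in young RCAM libraries, with a log2 fold change of 0.45 ± 0.18 (adjusted p = 0.209, and 0.0183 without young library 2). For both, the ranges overlapped. Fabp5, which carries fatty acids in the cytosol, was scarce at 2.40 to 4.40 CPM in aged and 0.864 to 2.39 CPM in young RCAM libraries. These ranges only just missed each other, and its log2 fold change was 0.91 ± 0.36 (adjusted p = 0.220). Together 7 of the 9 genes had groups that did not overlap, all higher in aged RCAM libraries, where 7.55% of all genes tested did so.

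Within the aged RCAM group the libraries were not alike. Aged library 3 had the lowest level of 6 of the 9 genes (Trem2, Gpnmb, Spp1, Cd9, Fabp5 and Lgals3) and the highest Apoe. Markers of other cells also differed with age in RCAM libraries. The 8-gene fibroblast list summed to 1276, 928.7, 2274 and 2646 CPM in aged RCAM libraries, against 639.0, 543.5, 747.7 and 739.4 CPM in young RCAM libraries. Of its 8 genes 4 were called higher, beside 3.43% of all genes tested, and the median log2 fold change was 1.48. All 8 had an unadjusted p under 0.05, beside 17.4% of all genes tested. Aged library 2, with the lowest fibroblast sum of the 4, had the highest Gpnmb, and aged library 4, with the highest fibroblast sum, had nearly the same Gpnmb and the highest Spp1, Cd9, Fabp5 and Lpl. The endothelial list summed to 16.1 to 24.3 CPM in aged and 7.92 to 13.0 CPM in young RCAM libraries, the dendritic cell list to 405.0 to 509.4 and 344.9 to 400.8 CPM, and the B and T cell list to 23.8 to 31.9 and 9.43 to 18.6 CPM, so these also did not overlap. The adipocyte sums overlapped, at 129.1 to 185.9 CPM in aged and 121.9 to 150.1 CPM in young RCAM libraries, as did both tubule lists. Of 8 tested adipocyte genes 0 were called, and the median log2 fold change was 0.47. At an unadjusted p under 0.05 there were 3 of them, beside 17.4% of all genes tested. Adipoq, of that list, had 4.43 to 9.365 CPM in aged and 1.02 to 4.46 CPM in young RCAM libraries. The part of these cells in the levels of the 9 genes was not tested. In bulk RNA, a change in the number of cells of a type and a change in RNA per cell cannot be told apart.

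**Figure D2:**
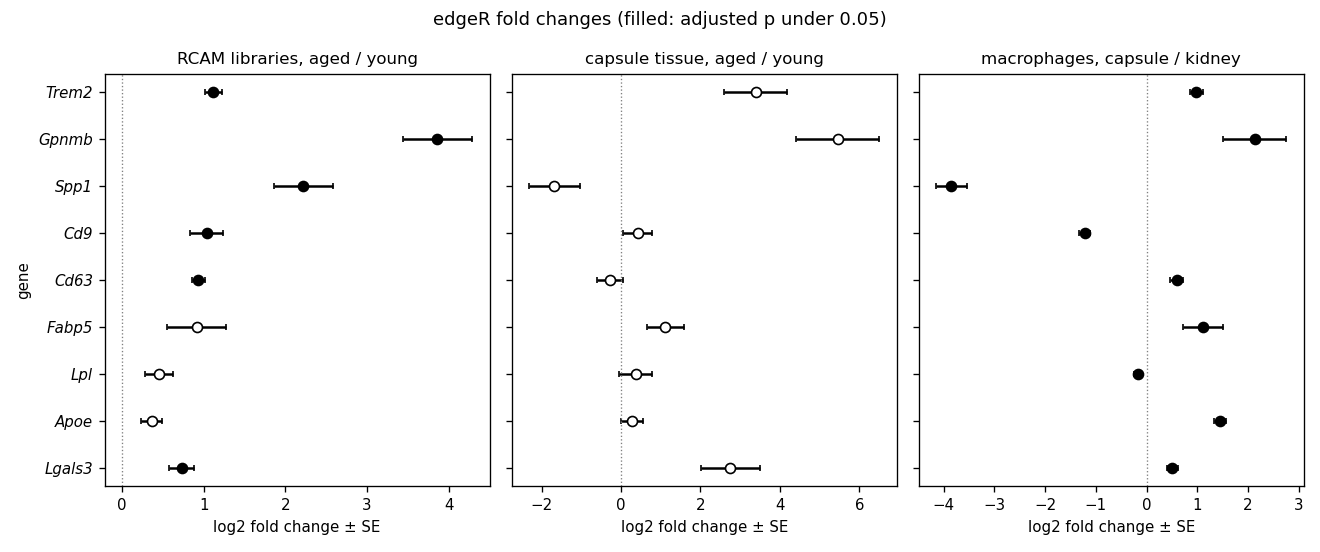
Log2 fold change ± SE of each gene in aged against young RCAM libraries, aged against young capsule tissue and capsule against kidney macrophages, with filled points for an adjusted p under 0.05 in edgeR. In RCAM libraries all 9 estimates lie above 0, and in the macrophage comparison Spp1, Cd9 and Lpl lie below 0 while the other 6 lie above.

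Genes that act with these 9 were followed in the same RCAM comparison. Of 13 tested genes of TREM2 signalling and shedding, among them Tyrobp, Syk and Plcg2, 0 were called, and 1 had an unadjusted p under 0.05, as 17.4% of all genes tested did. Tyrobp, the adaptor of TREM2, had 620.1 to 752.5 CPM in aged and 621.9 to 682.4 CPM in young RCAM libraries (log2 fold change 0.05 ± 0.08, adjusted p = 0.814). Of 6 tested genes of the TREM and CD300 families, 3 were higher, beside 3.43% of all genes tested: Cd300a (0.52 ± 0.06), Trem3 (2.48 ± 0.46) and Trem1 (3.77 ± 0.90, as log2 fold changes). Trem1 and Trem3 were scarce, at no more than 3.34 and 3.88 CPM in any RCAM library. The galectins other than Lgals3 gave 0 calls of 6 tested, with 1 at an unadjusted p under 0.05.

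Lipid handling genes of the RCAM libraries gave calls in 1 direction only, to be read, like those of the lists after them, against the 3.43% of all genes called higher. Of 14 tested genes for cholesterol efflux and storage, 3 were higher in aged RCAM libraries. Plin2, which coats lipid droplets, had 951.5 to 1119 CPM in aged and 555.2 to 636.0 CPM in young RCAM libraries (log2 fold change 0.80 ± 0.07, adjusted p = 0.00049). Nr1h3, the sterol sensor LXR alpha, and Nceh1, which hydrolyses stored cholesterol esters, were also higher (1.58 ± 0.32 and 0.42 ± 0.09). Of 12 tested genes for fatty acid uptake, Fabp4 and Slc27a1 were higher (1.50 ± 0.20 and 0.67 ± 0.12). Of 6 tested partners of Lpl, Angptl4 and Pcsk6 were higher. Angptl4, a secreted inhibitor of lipoprotein lipase, had 247.3 to 304.8 CPM in aged and 59.5 to 92.6 CPM in young RCAM libraries (log2 fold change 2.00 ± 0.14, adjusted p = 0.000316). Gpihbp1, which carries Lpl on capillary endothelium, stayed at or below 1.82 CPM in all RCAM libraries. Fabp4 had 27.65 to 53.4 CPM in aged RCAM libraries, against 3895 to 6842 CPM in aged capsule tissue. Nr1h3 had 20.4 to 71.5 against 100.9 to 118.8 CPM, and Pcsk6 had 5.62 to 18.1 against 87.6 to 123.9 CPM. Plin2 was lower in aged capsule tissue, at 359.2 to 456.0 CPM. The part of other capsule cells in these calls was not tested.

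In the lists for lysosomes, brain disease-associated microglia, receptors and tetraspanins, 2 or 3 genes each were called higher and none lower. Of 19 tested genes known from disease-associated microglia of the mouse brain, Axl, Cadm1 and Csf1 were higher (1.07 ± 0.10, 1.12 ± 0.14 and 0.96 ± 0.23) and the list's median was 0.08. Of 20 lysosomal and MiT/TFE genes, Atp6v0d2, a subunit of the proton pump that acidifies lysosomes, and Gla were higher (1.30 ± 0.13 and 0.42 ± 0.09), with a median of -0.01. Of 10 receptors of Spp1 and Gpnmb, the integrin subunits Itgb5 and Itgav were higher (1.31 ± 0.16 and 0.80 ± 0.18). Of 11 other tetraspanins, Tspan13, Cd82 and Tspan4 were higher (0.66 ± 0.10, 0.64 ± 0.11 and 0.61 ± 0.11).

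The second comparison set capsule tissue of aged mice against that of young mice. Trem2, Gpnmb and Lgals3 had the largest positive estimates of the 9 and Spp1 the largest negative one, but in edgeR none of the 9 genes passed the threshold. With 3 libraries in each group, 0.239% of 16350 genes were called in either direction. At an unadjusted p under 0.05 there were 5 of the 9 genes (Trem2, Gpnmb, Lgals3, Spp1 and Fabp5), beside 22.5% of all genes. DESeq2 called 4 of the 9 (Trem2, Gpnmb and Lgals3 higher, Spp1 lower in aged capsule tissue) and limma-voom called 0.

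Trem2 had 90.9, 13.0 and 168.4 CPM in aged capsule tissue, against 8.21, 5.50 and 10.6 CPM in young capsule tissue. All 3 aged libraries lay above the young ones, but aged library 2 by little. The log2 fold change was 3.39 ± 0.80 (adjusted p = 0.0897). Gpnmb had 842.4, 45.3 and 1106 CPM in aged capsule tissue, against 13.9, 9.30 and 19.0 CPM in young capsule tissue. Again the groups were apart and aged library 2 was far below its 2 companions. The log2 fold change was 5.45 ± 1.05 (adjusted p = 0.0711).

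Lgals3 had 434.1, 67.1 and 763.0 CPM in aged capsule tissue, against 56.8, 47.2 and 70.8 CPM in young capsule tissue, so aged library 2 fell inside the young range. The log2 fold change was 2.75 ± 0.74 (adjusted p = 0.104). Without aged library 2, 3 of the 9 genes were called higher, with adjusted p of 0.0146 for Trem2, 0.00485 for Gpnmb and 0.0166 for Lgals3. Without both libraries numbered 2, which held the adrenal transcripts, 4 were called higher, the fourth being Fabp5 at an adjusted p of 0.0459. That library held the lowest level of 7 of the 9 genes in its group and the highest Lpl, and aged library 3 held the highest level of the other 8.

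Spp1 had 57.5, 57.7 and 137.9 CPM in aged capsule tissue, against 124.4, 125.6 and 505.2 CPM in young capsule tissue. The groups overlapped through aged library 3, and the log2 fold change was -1.67 ± 0.64 (adjusted p = 0.177). Fabp5 had 10.8 to 27.5 CPM in aged and 5.39 to 11.9 CPM in young capsule tissue, with a log2 fold change of 1.12 ± 0.46 (adjusted p = 0.206). Apoe had 3148 to 4224 CPM in aged and 2807 to 3059 CPM in young capsule tissue. These ranges did not overlap, but its log2 fold change was 0.28 ± 0.27 (adjusted p = 0.585). Lpl, Cd9 and Cd63 overlapped between the groups, with log2 fold changes of 0.37 ± 0.41, 0.42 ± 0.35 and -0.28 ± 0.34. In all, 3 of the 9 genes had groups apart and higher in aged capsule tissue, where 19.1% of all genes tested did.

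Summed marker RNA of several cell types differed with age in capsule tissue. In edgeR 0 of 12 macrophage genes, 0 of 7 proximal tubule genes and 0 of 7 loop and distal tubule genes were called, where 0.239% of all genes tested were. At an unadjusted p under 0.05 there were 7, 7 and 5 of them, beside 22.5% of all genes. The macrophage list summed to 6037, 4395 and 10930 CPM in aged capsule tissue, against 3243, 2099 and 4258 CPM in young capsule tissue, and Csf1r, the receptor that macrophages need to survive, had 588.4, 549.7 and 650.2 CPM against 377.4, 235.7 and 449.6 CPM. No library of 1 group overlapped with the other in either measure. The proximal tubule list went the other way, with 1773, 1227 and 6065 CPM in aged capsule tissue and 15870, 6310 and 24720 CPM in young capsule tissue, as did the loop and distal tubule list, at 109.0 to 258.9 and 219.2 to 744.2 CPM with an overlap. The B and T cell list summed to 62.2 to 90.1 CPM in aged and 18.6 to 27.2 CPM in young capsule tissue. Of its 6 genes 1 was called higher, and all 6 had an unadjusted p under 0.05. The brown adipocyte list summed to 253.6 to 379.3 CPM in aged and 784.8 to 3159 CPM in young capsule tissue. The 5-gene melanocyte list, given because Gpnmb is also a melanosome protein, summed to 2.89 to 6.46 CPM in aged and 2.25 to 2.73 CPM in young capsule tissue. The part of these cells in the levels of the 9 genes was not tested.

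Set against macrophage marker RNA in the same library, the genes of aged and young capsule tissue separated into those with more and those with less. Per 1000 CPM of the macrophage list, Gpnmb had 139.5, 10.3 and 101.2 CPM in aged capsule tissue, against 4.28, 4.43 and 4.46 CPM in young capsule tissue. Trem2 had 15.1, 2.95 and 15.4 CPM in aged and 2.53, 2.62 and 2.49 CPM in young capsule tissue. Both remained apart, and aged library 2 was nearest to the young libraries. Lgals3 had 71.9, 15.3 and 69.8 CPM in aged and 17.5, 22.5 and 16.6 CPM in young capsule tissue, with aged library 2 below all 3 young libraries. Fabp5 had 2.49, 2.46 and 2.52 CPM in aged and 1.66, 5.66 and 1.28 CPM in young capsule tissue, so its mean was lower in aged capsule tissue through young library 2 alone and higher without the libraries numbered 2 or per Csf1r. The other 5 genes had lower means per macrophage RNA in aged capsule tissue, Cd63 among them with 30.5, 30.6 and 26.3 CPM, against 72.2, 79.1 and 67.0 CPM in young capsule tissue. These ratios are values only and were not tested.

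On the same measure, aged capsule tissue and aged RCAM libraries were far apart for Gpnmb. Aged RCAM libraries held 1.34 to 3.03 CPM of Gpnmb per 1000 macrophage CPM, and young RCAM libraries 0.0942 to 0.329 CPM. All 3 aged capsule tissue libraries, at 10.3 to 139.5 CPM, and all 3 young ones, at 4.28 to 4.46 CPM, lay above every RCAM library. For Trem2, aged RCAM libraries held 3.39 to 3.97 CPM per 1000 macrophage CPM and young RCAM libraries 1.40 to 2.00 CPM, and 2 of the 3 aged capsule tissue libraries were higher, at 15.1 and 15.4 CPM. RCAM and capsule tissue libraries may also differ in kit, since the labels name a regular-input and a low-input kit without saying which library had which, and kit and tissue cannot be told apart here.

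**Figure D3:**
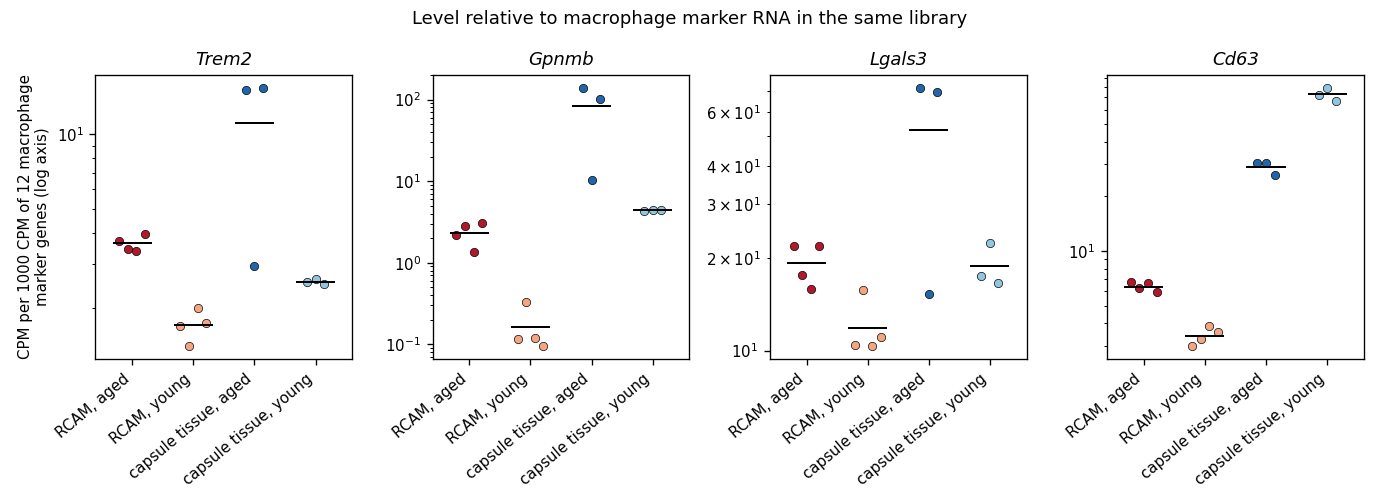
Trem2, Gpnmb, Lgals3 and Cd63 in CPM per 1000 CPM of the 12-gene macrophage list (log axis) in RCAM and capsule tissue libraries, with 1 point per library and a line at the group mean. Gpnmb lies at or above 4.28 in every capsule tissue library and at or below 3.03 in every RCAM library, and for Trem2, Gpnmb and Lgals3 one aged capsule tissue library sits far below the other 2.

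The effects of age in the 2 kinds of sample, RCAM and capsule tissue, were set against each other in 1 fit over their 14 libraries. They differed for 2 of the 9 genes, Spp1 and Cd63, where 5.05% of 18856 genes tested were called in either direction. For Spp1 the age effect in RCAM libraries minus that in capsule tissue was 3.93 ± 0.79 on the log2 scale (adjusted p = 0.0223): the gene was higher in aged than in young RCAM libraries, while the estimate in capsule tissue was negative. The call was lost without aged capsule tissue library 1 (adjusted p = 0.0619), and without young capsule tissue library 3, which had 505.2 CPM, the difference was 2.92. For Cd63 the difference was 1.25 ± 0.32 (adjusted p = 0.0415), and 12 of 14 fits that left out 1 library lost the call, with adjusted p up to 0.122. The 2 that kept it left out young capsule tissue library 2 or aged capsule tissue library 3. For Trem2, Lgals3 and Gpnmb the difference was -2.23 ± 0.75, -1.99 ± 0.72 and -1.55 ± 1.02 (adjusted p = 0.0969, 0.119 and 0.405). Without aged capsule tissue library 2 the first of these values had an adjusted p of 0.00625 and the second 0.00808.

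The third comparison set capsule macrophages against kidney macrophages. All 9 genes were called, against a background in which 55.4% of 15701 genes were, 27.3% higher and 28.2% lower in capsule macrophages. Trem2, Gpnmb, Apoe, Lgals3, Cd63 and Fabp5 were higher in capsule macrophages, and Spp1, Cd9 and Lpl were lower. The median log2 fold change was 0.59 over the 9 genes and -0.03 over all genes tested. Since more than 1 gene in 2 was called, the sizes and directions say more about the 9 genes than their count.

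Trem2 had 63.1, 46.7, 52.8 and 61.6 CPM in capsule macrophages, against 35.9, 26.9, 38.5 and 31.0 CPM in kidney macrophages. The groups were apart, and the log2 fold change on the scale of the fit was 0.98 ± 0.13 (adjusted p = 0.000114). Apoe had 20700, 22410, 17670 and 19860 CPM in capsule macrophages, against 7461, 9360, 7640 and 9436 CPM in kidney macrophages. Its log2 fold change was 1.46 ± 0.12 (adjusted p = 3.2e-06), again with no overlap. Gpnmb was near the bottom of the range in both, at 1.54, 4.76, 3.87 and 1.53 CPM in capsule macrophages, against 0.372, 0.464, 0.408 and 1.75 CPM in kidney macrophages. Kidney library 4 overlapped with the capsule group, and the log2 fold change was 2.13 ± 0.62 (adjusted p = 0.0137), or 3.01 without that library. Lgals3 and Cd63 had smaller changes of 0.51 ± 0.11 and 0.59 ± 0.13.

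Spp1 had 11.9, 4.63, 10.7 and 5.82 CPM in capsule macrophages, against 162.3, 109.8, 172.6 and 109.8 CPM in kidney macrophages. This was the largest change of the 9, with a log2 fold change of -3.84 ± 0.30 (adjusted p = 2.49e-06). Cd9 had 80.5, 68.8, 102.3 and 72.2 CPM in capsule macrophages, against 220.8, 201.5, 237.8 and 215.1 CPM in kidney macrophages, a log2 fold change of -1.22 ± 0.12 (adjusted p = 1.10e-05). For both, every capsule library lay below every kidney library. Lpl and Fabp5 had small or uncertain changes of -0.18 ± 0.07 and 1.11 ± 0.40 (adjusted p = 0.0410 and 0.0345). Their calls were lost in 6 and 5 of the 8 fits that left out 1 library, with adjusted p up to 0.0959 and 0.0960.

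Tubule RNA moved with Spp1 in this comparison. The loop and distal tubule list, which holds Umod and other genes of the segments in which Spp1 is known to be expressed, summed to 20.1, 5.40, 4.33 and 2.26 CPM in capsule macrophages, against 373.1, 279.4, 388.9 and 231.7 CPM in kidney macrophages. The proximal tubule list summed to 11.9 to 130.1 CPM in libraries of capsule macrophages, below the 1300 to 2458 CPM in those of kidney macrophages. In capsule tissue the highest Spp1, 505.2 CPM in young library 3, stood with the highest loop and distal tubule sum, 744.2 CPM, while young libraries 1 and 2 had nearly equal Spp1 at sums of 617.2 and 219.2 CPM. In RCAM libraries the loop and distal tubule list summed to 17.0, 15.7, 12.4 and 6.49 CPM in aged libraries, against 1.36, 9.63, 0.939 and 43.4 CPM in young libraries, so 3 of the 4 aged sums lay above 3 of the 4 young ones and young library 4 lay above all. The part of tubule RNA in the level of Spp1 was not tested, nor was its part in Cd9 and Lpl, which were also lower in capsule macrophages. Fibroblast marker RNA went the other way between the macrophage groups, at 616.0 to 903.4 CPM in capsule macrophage libraries, against 11.4 to 17.2 CPM in kidney ones. So did adipocyte marker RNA, at 137.2 to 206.2 CPM against 75.8 to 93.55 CPM. Of 7 tested adipocyte genes 7 were called higher in capsule macrophages, beside 27.3% of all genes tested, with a median log2 fold change of 5.68. Adipoq had 2.05 to 6.28 CPM in capsule macrophages and 0 CPM in kidney macrophages. The part of fibroblast and adipocyte RNA in the genes that were higher in the capsule was not tested either.

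**Figure D4:**
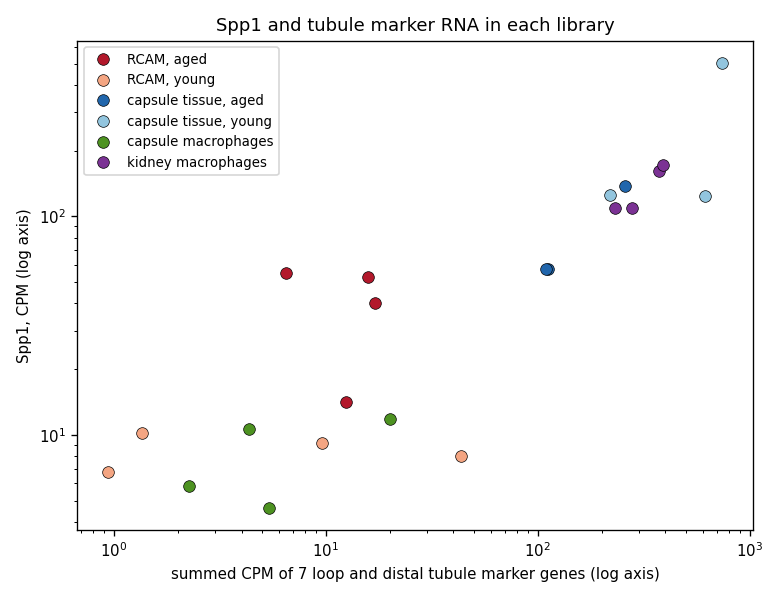
Spp1 in CPM against the summed CPM of 7 loop and distal tubule marker genes in the 22 libraries, both on log axes, with 1 point per library coloured by group. Kidney macrophages and capsule tissue lie at the upper right with tubule sums of at least 109.0 CPM, and the aged RCAM libraries lie above the young ones in Spp1, with tubule sums of 6.49 to 17.0 CPM in aged and 0.939 to 43.4 CPM in young RCAM libraries.

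Genes that act with the 9 also differed between the macrophage groups, at rates to be read against the background of 55.4%. Of 13 genes of TREM2 signalling, 6 were higher and 4 lower in capsule macrophages, with Ms4a6d, Ms4a4a and Syk leading (1.90 ± 0.12, 1.91 ± 0.20 and 0.88 ± 0.09). Of 6 genes of the TREM and CD300 families, 2 were higher and 3 lower, among them Treml4, Trem1 and Trem3 (-1.27 ± 0.18, -2.72 ± 0.39 and -1.15 ± 0.27). Of 14 cholesterol genes, 9 were higher and 2 lower. Pltp, which transfers phospholipids between lipoproteins, Plin2 and the cholesterol exporter Abca1 were higher (4.50 ± 0.13, 1.74 ± 0.08 and 1.78 ± 0.18). Of 13 fatty acid genes, 6 were higher and 5 lower. The scavenger receptor Cd36 was higher (1.38 ± 0.11), and Acsl1 and Ppard were lower (-1.68 ± 0.09 and -1.58 ± 0.15).

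Of 6 partners of Lpl, 5 were higher in capsule macrophages and none lower, with Angptl4 at 82.5 to 113.6 CPM in capsule and 2.09 to 5.56 CPM in kidney macrophages (4.69 ± 0.25). Of 20 lysosomal genes, 13 were higher and 4 lower, led by Grn, Hexa and Lamp1 (2.19 ± 0.08, 1.12 ± 0.06 and 1.05 ± 0.08). Of 19 genes known from disease-associated microglia, 11 were higher and 5 lower, led by Timp2, Capg and Ctsd (2.48 ± 0.08, 3.45 ± 0.11 and 2.81 ± 0.11). Receptors of Spp1 and Gpnmb ran the other way, with 1 of 10 higher and 8 lower. The integrin subunits Itga9, Itgav and Itgb5 were all lower in capsule macrophages (-2.24 ± 0.11, -2.38 ± 0.15 and -1.34 ± 0.12). Of 11 other tetraspanins, 6 were higher and 4 lower, led by Tspan3, Cd37 and Tspan4 (2.18 ± 0.08, 1.51 ± 0.08 and 1.76 ± 0.10). Of 5 other galectins, 4 were higher and 1 lower, with Lgals1 and Lgals9 higher (3.14 ± 0.11 and 1.15 ± 0.09) and Lgals4 lower (-2.28 ± 0.35).

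RCAM libraries were also set against capsule tissue at each age. These comparisons share libraries with the age comparisons above, and kit and tissue cannot be told apart in them. In young mice 8 of the 9 genes were called, where 75.9% of 17491 genes were, 35.2% higher in RCAM libraries and 40.6% lower. Trem2, Apoe and Lgals3 were higher in young RCAM libraries (3.24 ± 0.24, 2.65 ± 0.20 and 3.20 ± 0.23 on the log2 scale). Spp1, Fabp5, Lpl, Cd9 and Cd63 were lower (-4.62 ± 0.54, -1.86 ± 0.46, -1.59 ± 0.32, -0.62 ± 0.23 and -0.58 ± 0.17). The value for Spp1 was -3.59 without young capsule tissue library 3, and the call for Cd9 was lost in 4 of 7 fits without 1 library, namely those without young capsule tissue library 1 or 3 or young RCAM library 2 or 4. Gpnmb was not called (-0.93 ± 0.47, adjusted p = 0.101, and 0.00348 without young RCAM library 2).

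In aged mice 5 of the 9 genes were called, where 70.7% of 17595 genes were, 32.2% higher in RCAM libraries and 38.5% lower. Apoe and Cd63 were higher in aged RCAM libraries (2.70 ± 0.20 and 0.62 ± 0.24) and Gpnmb, Fabp5 and Lpl were lower (-2.54 ± 0.80, -2.09 ± 0.37 and -1.55 ± 0.23). Gpnmb had 51.1 to 113.9 CPM in aged RCAM libraries and 45.3 to 1106 CPM in aged capsule tissue, so the groups overlapped through capsule library 2. Its call (adjusted p = 0.0195) was lost without capsule tissue library 1 or 3 (adjusted p = 0.0553 and 0.0858), and the change was -3.08 without library 2. The call for Cd63 was lost in 6 of 7 fits without 1 library, the exception being capsule tissue library 3. Trem2, Lgals3, Spp1 and Cd9 did not pass the test (0.96 ± 0.64, 1.16 ± 0.62, -0.74 ± 0.48 and -0.01 ± 0.31), and Trem2 and Lgals3 did so without capsule tissue library 3 (adjusted p = 0.0411 and 0.0307).

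Over the 16 macrophage and RCAM libraries, the genes with levels most like those of Trem2 were Atp6v0d2, Slc15a2, Hvcn1, Rab34 and Aldh9a1, with Pearson's r of log2 CPM of 0.97, 0.96, 0.957, 0.95 and 0.947 among 8490 genes compared. For Gpnmb they were Hvcn1, Gla, Atp6v0d2, Alas1 and Fbln5, at 0.948, 0.93, 0.928, 0.926 and 0.918. Hvcn1, a proton channel, and Atp6v0d2 were on both lists. Trem2 and Gpnmb themselves correlated at 0.92, and Trem2 and Cd63 at 0.93. Spp1 followed Cd9 (0.83) and not Trem2 (-0.27). The 16 libraries fall into 4 groups of 4 that differ in site, age or preparation, so these values describe mainly the order of the group levels.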

How the data were processed

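RNA of 22 mouse libraries was sequenced, and per the labels' protocols a regular-input stranded mRNA kit and a low-input kit were both used, with no statement of which library had which. The authors deposited raw read counts for 52636 genes, with no normalization, and RPKM values, which were not used because the gene width behind the deposited RPKM equalled the genomic span for 85.6% of genes. The genome build was GRCm38 per the submitters' processing notes. For the aligner, counter and use of strand, the answer is not given in the sources used here. Names of genes came from GENCODE M21, in which 52489 identifiers were found and 147 were not.

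Each level is in CPM of the plain library total over all genes. The test was edgeR 4.0.16 under R 4.3.3 (quasi-likelihood F test, 2-sided, TMM scaling, default expression filter, Benjamini-Hochberg adjustment over all genes tested, threshold 0.05), with only the groups compared in a fit. A fold change is on the TMM scale and can differ from the ratio of plain CPM. The steps were checked on simulated counts. Alternatives were DESeq2 1.42.0, limma-voom (limma 3.58.1), DESeq2 size factors, no expression filter, scaling without immunoglobulin, mitochondrial and haemoglobin genes, a replicate block, and leaving out libraries. Ratios to Csf1r alone, and ratios without the capsule tissue libraries numbered 2, were added after seeing the data.

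The 9 genes, the marker lists and the pathway lists were chosen with earlier results of these data known. Named genes were the 9, Csf1r, up to 3 genes of smallest p per list where any passed, and the 5 genes of highest r with Trem2 or Gpnmb (mean log2 CPM of at least 3, prior count 2). Tyrobp, Gpihbp1, Mpeg1, Umod and Plcg2 were named in addition, after their values were seen. No 2 replicates agreed within sampling noise. A result for 1 gene of the pathway lists in capsule tissue is not reported here.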

Additional observations from a re-analysis of the deposited data

Results flagged for a closer look

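Among the 36 combinations of 1 of the 9 genes and a group of 4 libraries, 3 held a library far from the other 3, by Dixon's criterion, which flags about 1 in 20 groups by chance. Gpnmb had 12.3 CPM in young RCAM library 2, against 3.50 to 4.56 CPM in the other young RCAM libraries. Lgals3 had 587.0 CPM in the same library, against 376.3 to 411.1 CPM in the others. Gpnmb had 1.75 CPM in kidney macrophage library 4, against 0.372 to 0.464 CPM in the other kidney macrophage libraries.

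For 2 of the 9 genes a test of the difference itself called unequal age effects in RCAM and capsule tissue libraries, where 5.05% of 18856 genes tested were called. The difference was 3.93 for Spp1 and 1.25 for Cd63 on the log2 scale, as the age effect in RCAM libraries minus that in capsule tissue. Of 14 fits that left out 1 library, 1 lost the call for Spp1 and 12 lost that for Cd63. The proximal tubule sum was lower in every aged than in every young capsule tissue library, while the loop and distal tubule sums overlapped there. In RCAM libraries the loop and distal tubule sums also overlapped, at 6.49 to 17.0 CPM in aged and 0.939 to 43.4 CPM in young libraries. The part of tubule RNA in these differences was not tested.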

How the results depend on the processing

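No direction of a called gene was reversed by any alternative, and of 810 refitted fold changes of the 9 genes 727 kept their side of the threshold, 31 gained a call and 52 lost one. In capsule tissue of aged against young mice, the count of 9 genes called was 0 in the edgeR test, 3 with no expression filter, 4 with DESeq2, 4 without both libraries numbered 2, 0 with limma-voom or other scaling, and 0 to 3 when 1 library was left out. Calls over all genes there, 25 higher and 14 lower, became 754 and 1122 with DESeq2, 403 and 692 with no filter, 14 and 11 with limma-voom, 176 and 311 without both libraries numbered 2, and 0 without young library 1 or aged library 1. The difference of the age effects was called for 2 genes, for 4 with DESeq2 (1304 and 1020 genes in all, against 589 and 363), for 4 without both libraries numbered 2, and for 0 to 3 when 1 library was left out. Aged RCAM libraries against aged capsule tissue gave 5 genes, and 3 to 6 when 1 library was left out. Aged against young RCAM libraries gave 6 genes, and 4 to 7 so, and 937 and 504 genes in all with DESeq2 against 520 and 209.

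Replicate numbers were not taken as pairs: capsule tissue libraries of equal number correlated in their deviations at 0.099, 0.353 and 0.31, and each library correlated best with its own number, a hint from the data and not from the design. With the replicate block, 4 of the 9 genes were called in capsule tissue by age (Trem2, Gpnmb and Lgals3 higher and Spp1 lower, adjusted p = 0.0142, 0.0119, 0.0421 and 0.00438; 943 higher and 1253 lower genes in all), 5 in RCAM libraries by age (280 and 56), 7 between the macrophage groups, 8 and 4 between RCAM libraries and capsule tissue in young and in aged mice, and 2 for the difference of the age effects.

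The group order of the mean levels was the same for 8 of the 9 genes with TMM-scaled totals (all but Apoe) and for 7 per kb scaled to a library sum. Means per macrophage RNA were higher in aged capsule tissue for 3 of the 9 genes, for 4 per Csf1r and for 4 without the libraries numbered 2, the fourth being Fabp5 in both. Depth limits Fabp5 and, in macrophages, Gpnmb, which had few counts.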

Other observations

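Outside the 9 genes, Fabp3 of the list for fatty acid uptake was called by age in capsule tissue, where 0.239% of 16350 genes tested were. Without young library 1 or aged library 1 no gene was called there, Fabp3 included. Fabp3, the fatty acid carrier of heart and brown fat, had 0.723 to 1.07 CPM in aged and 7.03 to 12.6 CPM in young capsule tissue, a log2 fold change of -3.75 ± 0.37 (SE, edgeR adjusted p = 0.0229). The 6-gene brown adipocyte list was also lower in every aged than in every young capsule tissue library, and its part in the level of Fabp3 was not tested.

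For Angptl4 the age effects in RCAM and capsule tissue libraries differed by 2.78 ± 0.30 on the log2 scale (edgeR adjusted p = 0.00194), with 247.3 to 304.8 CPM in aged and 59.5 to 92.6 CPM in young RCAM libraries, beside 316.4 to 348.4 CPM in aged and 363.8 to 688.5 CPM in young capsule tissue. Among the 13 genes of TREM2 signalling, Plcg2, Syk and Vav1 had a smaller age effect in RCAM libraries than in capsule tissue (-1.05 ± 0.24, -1.11 ± 0.26 and -1.03 ± 0.25), where 5.05% of all genes tested were called in either direction. By age in capsule tissue, 0 of these 13 genes and 0 of 12 macrophage genes were called in edgeR, where 0.239% of all genes tested were. At an unadjusted p under 0.05 there were 10 of the 13 and 7 of the 12, beside 22.5% of all genes. The median log2 fold changes of the 2 lists were 1 and 0.9. Summed macrophage marker RNA was higher in every aged than in every young capsule tissue library, and its part in these differences was not tested.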
